A study of Lachancea kluyveri with 16 samples.

Results

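FRE4 (SAKL0F14718g), FRE5 (SAKL0F14740g) and FRE2 (SAKL0F14784g) are genes of the yeast Lachancea kluyveri annotated as ferric reductases, and they lie beside each other on chromosome F. They were taken by locus tag with every probe of each, and made up 3 of the 5316 genes and 6 of the 10620 gene probes on the array. Among genes with a probe, the order of the locus tags is FRE4, FRE5, FRE3 (SAKL0F14762g) and FRE2, so that FRE3, a further reductase gene, stands between FRE5 and FRE2. The names are those of the study, which describes FRE4 and FRE2 as only weakly similar to FRE3 of Saccharomyces cerevisiae, and FRE5 as weakly similar to FRE5 of that species.

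Ferric reductases are membrane proteins that carry electrons across the membrane to ferric iron or cupric copper and turn them into the reduced ions that transporters accept. In S. cerevisiae the ferrous iron then enters through a complex of the multicopper oxidase Fet3 and the permease Ftr1, Ccc2 supplies the oxidase with copper, and the transcription factor Aft1 raises expression of these genes when iron is short. Some members of the reductase family there, among them FRE3, release iron from siderophores, the small iron carriers that microbes secrete.

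The series measured mRNA in 4 groups of 4 cultures, labelled as biological repeats, with 1 single-colour array per culture. The study asked which genes Sef1, a transcription factor, controls in L. kluyveri, and what happens when its activity is raised. In the SEF1-VP16 strain (MATa ura3 SEF1-VP16::FRT) the activation domain of VP16, a viral protein, is fused to the C terminus of Sef1 at the gene's own locus, and the strain was derived from the WT strain JYL1897 (MATa ura3). Only 1 SEF1-VP16 strain was used, so any other difference it carries cannot be told apart from the fusion. The groups were SEF1-VP16 labelled YPGly, WT labelled YPGly, SEF1-VP16 labelled YPD and WT labelled YPD. YPGly is rich medium with glycerol and YPD is rich medium with glucose. Every culture was first grown overnight in YPD at 28 °C, then diluted to 0.2 OD600 per ml and harvested after 5.5 h at 30 °C.

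Between 94.5% and 99.95% of the gene probes of an array were well above background, and no gene probe was saturated. A level is given here as the log2 signal of a probe minus the 75th percentile of its array, so that 0 is the 75th percentile and each unit is a doubling. Of the 5316 genes, 5267 were tested. A gene was called when its adjusted p was at most 0.05 and its change at least 1.5-fold in the limma fit of all 16 arrays. The arrays labelled YPGly lay on 1 slide and those labelled YPD on the other, each scanned on its own, so an effect of the slide or its scan cannot be told apart from one of the medium. On both slides SEF1-VP16 was in the second row and WT in the first, so strain and row cannot be told apart either. Of 10 genes for the use of non-fermentable carbon, such as PCK1 and FBP1 of gluconeogenesis, 9 were called lower on the arrays labelled YPGly in each strain, with a median log2 difference of -5.08 in SEF1-VP16 and -4.73 in WT. Those genes are repressed by glucose in S. cerevisiae. The study also lists FRE4 as 2.14-fold and FRE2 as 1.84-fold higher in SEF1-VP16 under YPD. The same folds were found here on the arrays labelled YPGly, so the sample labels and the study's listing are at odds for these genes. The labels of the 2 media may therefore be exchanged, which was not settled here, and the medium is given as labelled throughout. SEF1 itself was 0.36 and 0.39 log2 units lower in SEF1-VP16 than in WT where labelled YPGly and YPD (log2 differences of -0.36 and -0.39, limma adjusted p = 0.0446 and 0.0338), which is under 1.5-fold. A fusion at the C terminus need not change the mRNA level, so this does not check the strain labels.

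The question of the first comparison was whether the more active Sef1 went with more or less mRNA of the 3 genes. All 3 were higher in SEF1-VP16 than in WT where labelled YPGly, the label that the study's own listing contradicts. FRE5 was 2.20-fold higher, FRE4 2.14-fold and FRE2 1.84-fold. None of the 3 was called where labelled YPD. Each gene had a brighter and a dimmer probe, the brighter one being that with the higher mean over all arrays, and values are those of the brighter probe unless the dimmer one is named.

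FRE5 had levels of -0.77, -0.81, -0.79 and -0.41 in the SEF1-VP16 cultures labelled YPGly, against -1.87, -1.85, -1.80 and -1.80 in the WT cultures labelled YPGly. The 2 groups did not overlap, and the WT cultures differed by less than 0.1 log2 units. The log2 difference was 1.14 ± 0.14 (SE, n = 4 each; 95% interval 0.85 to 1.42, limma adjusted p = 0.000104). The fourth SEF1-VP16 culture stood above the other 3, and without it the difference was 1.04.

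FRE4 had levels of 1.83, 1.91, 1.66 and 1.82 in SEF1-VP16 labelled YPGly, against 1.04, 0.64, 0.70 and 0.45 in WT labelled YPGly. These groups did not overlap either, with a gap between the lowest SEF1-VP16 culture and the highest WT culture. The log2 difference was 1.10 ± 0.18 (SE, n = 4 each; 95% interval 0.71 to 1.49, limma adjusted p = 0.00212).

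FRE2 had the lowest fold change of the 3. Its levels were -3.84, -3.85, -4.02 and -3.90 in SEF1-VP16 labelled YPGly, against -4.66, -5.02, -4.68 and -4.78 in WT labelled YPGly, again without overlap. The log2 difference was 0.88 ± 0.17 (SE, n = 4 each; 95% interval 0.52 to 1.24, limma adjusted p = 0.00586). With quantile normalisation FRE2 was no longer called, at a log2 difference of 0.79 and an adjusted p of 0.0659, while the other 2 genes stayed called.

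The 3 members were thus called higher in 3 of 3 cases, where 1.61% of all genes tested were called higher in this comparison, and their cultures were apart in 3 of 3 cases, where those of 15.4% of all genes were apart and higher. The median log2 difference of the members was 1.10 and that of all genes 0.01. The members lie in the same stretch of chromosome and were chosen with such results known, so their counts are a description.

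**Figure D1:**
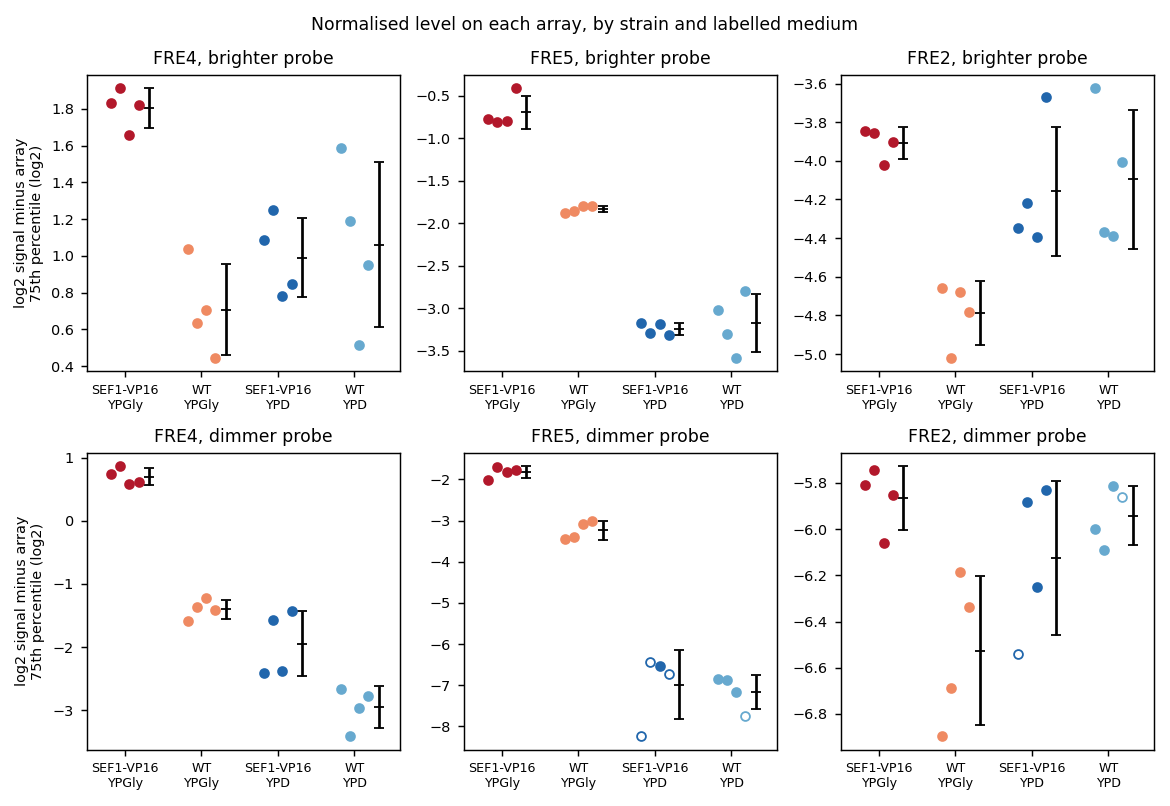
Normalised level of FRE4, FRE5 and FRE2 on each of the 16 arrays, as log2 signal minus the 75th percentile of the array, with the brighter probe of each gene above and the dimmer probe below. Points are single cultures in the order of their replicate numbers, open points were not well above background, and the bars beside them give the mean ± SD of the group (n = 4). With every probe, the 4 SEF1-VP16 cultures labelled YPGly lie above the 4 WT cultures labelled YPGly.

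Where labelled YPD the strains overlapped with the brighter probe of every member. FRE5 had levels of -3.17, -3.29, -3.19 and -3.31 in SEF1-VP16, against -3.02, -3.30, -3.58 and -2.79 in WT. FRE4 had 1.09, 1.25, 0.78 and 0.85 in SEF1-VP16, against 1.59, 1.19, 0.52 and 0.95 in WT. FRE2 had -4.35, -4.22, -4.40 and -3.67 in SEF1-VP16, against -3.62, -4.37, -4.39 and -4.01 in WT. In each case the WT cultures spanned the wider range or a like range, and SEF1-VP16 lay within it or near it. The log2 differences were -0.07 ± 0.14 for FRE5 (95% interval -0.35 to 0.22), -0.07 ± 0.18 for FRE4 (-0.46 to 0.32) and -0.06 ± 0.17 for FRE2 (-0.43 to 0.30; SE, n = 4 each). With limma 0 of 3 members were called, where 1.48% of all genes were called higher and 0.646% lower, and where 4.5% were apart and higher and 3.49% apart and lower. The count was also 0 of 3 at an unadjusted p under 0.05 and with the methods' t-test, which is the study's unpaired test at the same fold limit. The upper bounds of these intervals lay below the lower bounds for the same genes where labelled YPGly.

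The difference between the 2 strain effects was tested in the same fit. The effect where labelled YPGly exceeded that where labelled YPD by 1.20 ± 0.19 log2 units for FRE5 (limma adjusted p = 0.005), by 1.17 ± 0.26 for FRE4 (adjusted p = 0.0349) and by 0.94 ± 0.24 for FRE2 (adjusted p = 0.0662). FRE5 and FRE4 were therefore called and FRE2 was not, which makes 2 of 3 members where 0.646% of all genes were called in that direction. FRE5 was called with each of the 16 arrays left out in turn. FRE4 was lost without any 1 of 10 arrays, namely all 4 of SEF1-VP16 labelled YPGly, WT labelled YPGly replicates 2, 3 and 4, SEF1-VP16 labelled YPD replicates 1 and 3 and WT labelled YPD replicate 2, with adjusted p values up to 0.08. FRE2 was called without SEF1-VP16 labelled YPD replicate 4 or WT labelled YPD replicate 3, at adjusted p values down to 0.0131. The 95% intervals of the 3 estimates overlapped (0.80 to 1.61 for FRE5, 0.62 to 1.72 for FRE4 and 0.43 to 1.46 for FRE2).

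The dimmer probes gave a second reading of the same RNA on the same arrays, so they are no further cultures. Where labelled YPGly, all 3 genes were called higher in SEF1-VP16 with these too, where 1.28% of the 5242 genes tested with the dimmer probe were called higher. For FRE2 the log2 difference was 0.66 ± 0.17 with the dimmer probe (adjusted p = 0.032), near that of the brighter one. For FRE5 it was 1.41 ± 0.31 (adjusted p = 0.0174), with levels of -2.02, -1.69, -1.82 and -1.76 in SEF1-VP16 against -3.46, -3.40, -3.08 and -3.00 in WT.

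FRE4 behaved differently with its 2 probes. With the dimmer probe its levels were 0.75, 0.87, 0.58 and 0.62 in SEF1-VP16 labelled YPGly, against -1.59, -1.37, -1.23 and -1.42 in WT labelled YPGly. That is a log2 difference of 2.11 ± 0.21 (SE, n = 4 each, limma adjusted p = 1.57e-05), or 4.31-fold against 2.14-fold with the brighter probe. Where labelled YPD the dimmer probe gave -2.41, -1.58, -2.38 and -1.44 in SEF1-VP16, against -2.66, -3.41, -2.97 and -2.77 in WT. These groups did not overlap, and the log2 difference of 1.00 ± 0.21 was called (adjusted p = 0.0102), where 1.51% of all genes were called higher with this probe. Whether FRE4 was higher in SEF1-VP16 where labelled YPD therefore depended on the probe.

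The 2 FRE4 probes agreed on the difference between the strain effects, which was 1.10 ± 0.29 with the dimmer probe and 1.17 ± 0.26 with the brighter. The values for FRE2 were also close, at 0.84 ± 0.23 and 0.94 ± 0.24. Its dimmer probe was well above background on only 3 of 4 arrays of each strain labelled YPD, which limits this check. For FRE5 the dimmer probe gave 1.24 ± 0.43, but it was near background on the arrays labelled YPD, well above it on 1 of 4 in SEF1-VP16 and 3 of 4 in WT, so this value does not check the brighter one. With the dimmer probes none of these 3 differences was called by limma (adjusted p = 0.0941 for FRE4, 0.22 for FRE5 and 0.114 for FRE2), where 0.305% of all genes were called in that direction.

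**Figure D2:**
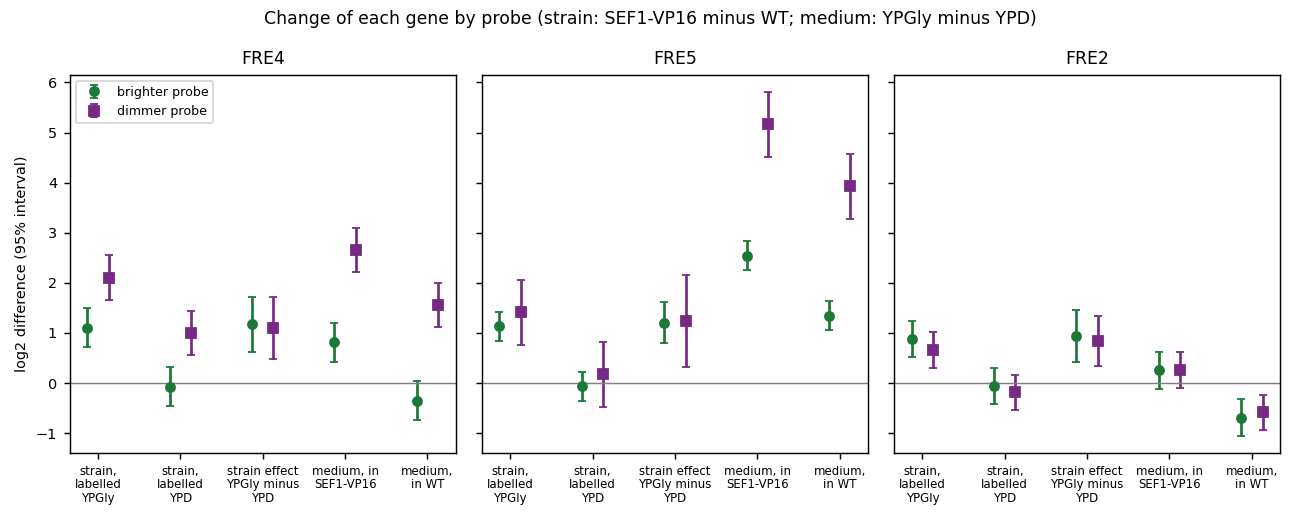
Log2 differences of FRE4, FRE5 and FRE2 with 95% intervals from the limma fits, for the brighter probe (circles) and the dimmer probe (squares). Strain effects are SEF1-VP16 minus WT and medium effects are YPGly minus YPD as labelled. The 2 probes lie close together in the difference between the strain effects, and far apart in the medium effects of FRE4. The dimmer FRE5 probe was near background where labelled YPD. That of FRE2 was well above background on only 3 of 4 arrays of each strain labelled YPD.

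With the brighter probe the calls between the labelled media differed among the 3 genes. In the direct test of unequal change, given below, no pair of the 3 passed after adjustment. That test could not decide the matter, since pairs whose cultures did not overlap were held at its smallest possible p. FRE5 was higher on the arrays labelled YPGly in both strains, by 2.55 ± 0.14 log2 units in SEF1-VP16 (5.84-fold, adjusted p = 8.15e-11) and by 1.34 ± 0.14 in WT (2.54-fold, adjusted p = 1.96e-07). FRE4 was higher there in SEF1-VP16, by 0.81 ± 0.18 (adjusted p = 0.000851), and its difference in WT was -0.36 ± 0.18 (adjusted p = 0.0932). FRE2 was lower in WT where labelled YPGly, at -0.69 ± 0.17 (adjusted p = 0.00187), and its difference in SEF1-VP16 was 0.25 ± 0.17 (95% interval -0.11 to 0.61, adjusted p = 0.2). The FRE2 call in WT rested on WT labelled YPD replicate 1, whose level was the highest of its group, and was lost without it at a log2 difference of -0.53, which is under 1.5-fold. In SEF1-VP16, 2 of 3 members were called higher and had cultures apart, where 26.6% of all genes were called higher and 40.2% were apart and higher. In WT, 1 of 3 was called higher (27.4% of all genes, with 36.3% apart) and 1 of 3 lower (20.5%, with 25.8% apart). The medium comparisons share their cultures with the strain comparisons, so they are not a second set of evidence. The median medium difference of all genes was 0.13 in SEF1-VP16 and 0.15 in WT.

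With the dimmer probe the medium effects of FRE4 and FRE5 were much larger. FRE4 was then 2.65 ± 0.21 log2 units higher where labelled YPGly in SEF1-VP16 and 1.55 ± 0.21 higher in WT (adjusted p = 1.11e-08 and 5.48e-06), so that its direction in WT was the reverse of that with the brighter probe. FRE5 was 5.16 ± 0.31 higher in SEF1-VP16 and 3.92 ± 0.31 higher in WT. Of all genes, 27.7% were called higher in SEF1-VP16 and 29.6% in WT with this probe, and 19.5% lower in WT. On the arrays labelled YPD this FRE5 probe was at -8.24, -6.44, -6.53 and -6.73 in SEF1-VP16 and at -6.86, -6.88, -7.16 and -7.74 in WT, and only 1 of the 4 SEF1-VP16 arrays and 3 of the 4 WT arrays had it well above background. The FRE5 folds with the dimmer probe are therefore set against signals near background. FRE2 gave 0.26 ± 0.17 and -0.59 ± 0.17 in SEF1-VP16 and WT with its dimmer probe, close to its brighter one. This dimmer probe was well above background on only 3 of 4 arrays of each strain labelled YPD.

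In order of level, FRE5 ran from SEF1-VP16 labelled YPGly (-0.70 ± 0.19, SD, n = 4) through WT labelled YPGly (-1.83 ± 0.04) to both groups labelled YPD, which overlapped (-3.24 ± 0.07 in SEF1-VP16 and -3.17 ± 0.34 in WT). FRE4 was highest in SEF1-VP16 labelled YPGly (1.81 ± 0.11), and the other 3 groups overlapped with each other, at 0.99 ± 0.22 in SEF1-VP16 labelled YPD, 1.06 ± 0.45 in WT labelled YPD and 0.71 ± 0.25 in WT labelled YPGly. FRE2 was lowest in WT labelled YPGly (-4.79 ± 0.17). Its other 3 groups overlapped, at -3.91 ± 0.08 in SEF1-VP16 labelled YPGly, -4.16 ± 0.33 in SEF1-VP16 labelled YPD and -4.10 ± 0.36 in WT labelled YPD.

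The 2 probes of a gene seldom disagreed as far as those of FRE4. Over 5228 genes with both probes tested, the median absolute difference between the probes was 0.08 log2 units for the strain effect labelled YPGly and 0.10 for the medium effect in WT. For FRE4 the dimmer probe exceeded the brighter by 1.01 in the strain effect labelled YPGly, a size reached by 0.153% of genes, and by 1.91 in the medium effect in WT, reached by 0.306%. For FRE5 the difference in the strain effect labelled YPGly was 0.28, reached by 5.74% of genes, and that in the medium effect has no firm size, since its dimmer probe was near background where labelled YPD. For FRE2 the differences were -0.22, reached by 11.0% of genes, and 0.10. The latter used a dimmer probe well above background on only 3 of the 4 WT arrays labelled YPD. The 2 probes correlated over the 16 arrays with Pearson's r of 0.63 for FRE4, 0.95 for FRE5 and 0.75 for FRE2, and with 0.12, -0.23 and 0.36 once group means were taken away. These correlations are descriptions over arrays that share their RNA and slide.

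The scan behind each FRE4 probe also differed. Its brighter probe had processed signals of 23276 to 66369 and was read from the low-gain scan on all 16 arrays, as were 1037 of the 10620 gene probes. Its dimmer probe had signals of 1224 to 31480 and was read from the low-gain scan only on the 4 arrays of SEF1-VP16 labelled YPGly. Over the 605 genes whose brighter probe was read from the low-gain scan on all arrays, the median absolute difference between probes was 0.08 in the strain effect labelled YPGly and 0.09 in the medium effect in WT. The part of the scan in the disagreement was not tested further. None of the 6 member probes carries the mark of the array design for cross-hybridisation.

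**Figure D3:**
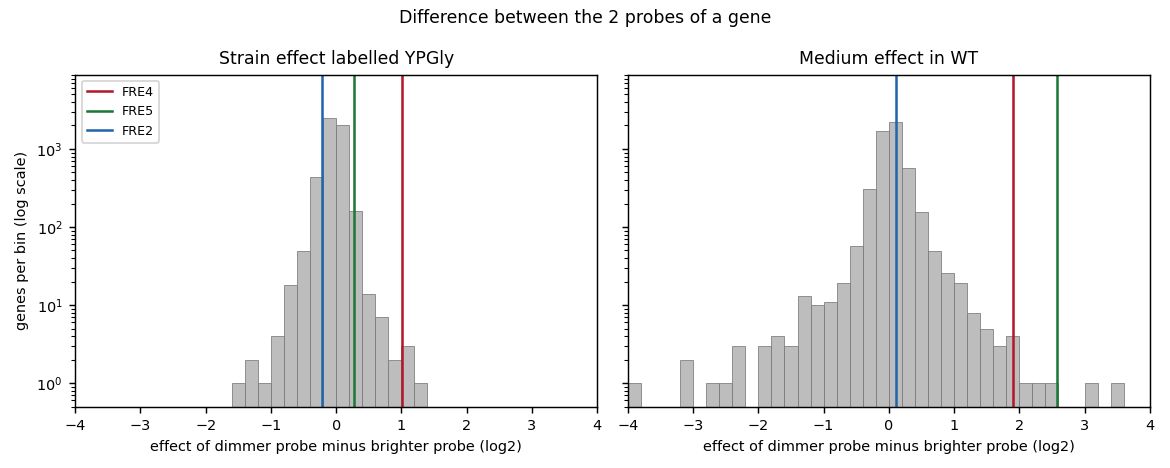
Effect of the dimmer probe minus that of the brighter probe for 5228 genes, in bins of 0.2 log2 units on a log scale of genes per bin, for the strain effect labelled YPGly (left) and the medium effect in WT (right). Lines mark FRE4, FRE5 and FRE2. FRE4 lies in the tail in both panels and FRE2 within the bulk, while the place of FRE5 in the right panel rests on a dimmer probe near background where labelled YPD. The dimmer FRE2 probe was well above background on only 3 of the 4 WT arrays labelled YPD.

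Whether the 3 genes changed by different amounts was tested on the same array, as the log2 level of 1 gene minus that of another, by an exact two-sided permutation test over 4 against 4 cultures. There were 3 pairs and 4 contrasts, and the smallest p this design allows is 0.0286. Between the strains labelled YPGly the change of FRE5 exceeded that of FRE4 by 0.04 log2 units (exact p = 0.83), that of FRE4 exceeded that of FRE2 by 0.22 (exact p = 0.0857), and that of FRE5 exceeded that of FRE2 by 0.26 (exact p = 0.114). Between the media the change of FRE5 exceeded that of FRE4 by 1.73 in SEF1-VP16 and 1.70 in WT, and that of FRE2 by 2.29 and 2.03. In these 4 cases the cultures did not overlap, each at the smallest exact p, and so it was for FRE4 over FRE2 in SEF1-VP16 (0.56). After adjustment over the 12 tests the exact permutation p of these 5 was 0.0686. Too few tests lay at the smallest p for any of these 5 to pass, so the result does not show equal changes. With the dimmer probes 10 of the 12 tests passed at an adjusted exact permutation p of 0.0343, but 4 of these set FRE5 against signals near background where labelled YPD. Among the others were all 3 pairs between the strains labelled YPGly, each at the smallest exact p, with FRE4 changing most. At this smallest p a test can pass the adjustment only when many of the 12 tests lie there. Within the 12 tests these 3 passes therefore lean on the tests set against signals near background. An adjustment that leaves those tests out was not made.

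FRE3, whose locus tag stands between FRE5 and FRE2, did not share the strain effect. Its levels were -4.30, -4.23, -4.44 and -4.09 in SEF1-VP16 labelled YPGly, against -4.07, -4.52, -4.09 and -4.27 in WT labelled YPGly, and the groups overlapped. The log2 difference was -0.03 ± 0.13 (SE, n = 4 each; 95% interval -0.30 to 0.24, limma adjusted p = 0.927), and its dimmer probe gave 0.03 ± 0.16. Measured on the same arrays, FRE5 changed by 1.17 log2 units more than FRE3, FRE4 by 1.13 more and FRE2 by 0.91 more. Each of these 3 comparisons, chosen after the values were seen, was at the smallest exact two-sided permutation p of 0.0286, also after adjustment over the 3. FRE3 did follow the labelled medium, at 0.75 ± 0.13 in SEF1-VP16 and 0.84 ± 0.13 in WT (adjusted p = 6.09e-05 and 1.8e-05).

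Where labelled YPGly, the strain effects of the genes on either side were smaller than those of the members. With FRE3, the neighbours were the 6 genes with a probe before FRE4 and the 6 after FRE2. With limma 0 of these 13 genes were called between the strains in either medium. That count is near the share over all genes, with 1.61% called higher where labelled YPGly and 1.48% where labelled YPD. The log2 differences of the 13 ran from -0.30 to 0.23 where labelled YPGly and from -0.43 to 0.35 where labelled YPD. At an unadjusted p under 0.05 the counts were 1 and 3, and with the methods' t-test 0 and 0. The share of all genes at that unadjusted p is not given, so the counts of 1 and 3 are not read further. SAKL0F14696g, the SEC17 homolog next to FRE4, which serves vesicle fusion in S. cerevisiae, gave -0.0007 ± 0.22 where labelled YPGly. SAKL0F14806g, the MOH1 homolog next to FRE2, gave -0.30 ± 0.15 there. It was also the neighbour with the largest medium effect, at -2.79 ± 0.15 in SEF1-VP16 and -2.56 ± 0.15 in WT, both called and opposite in sign to FRE5.

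**Figure D4:**
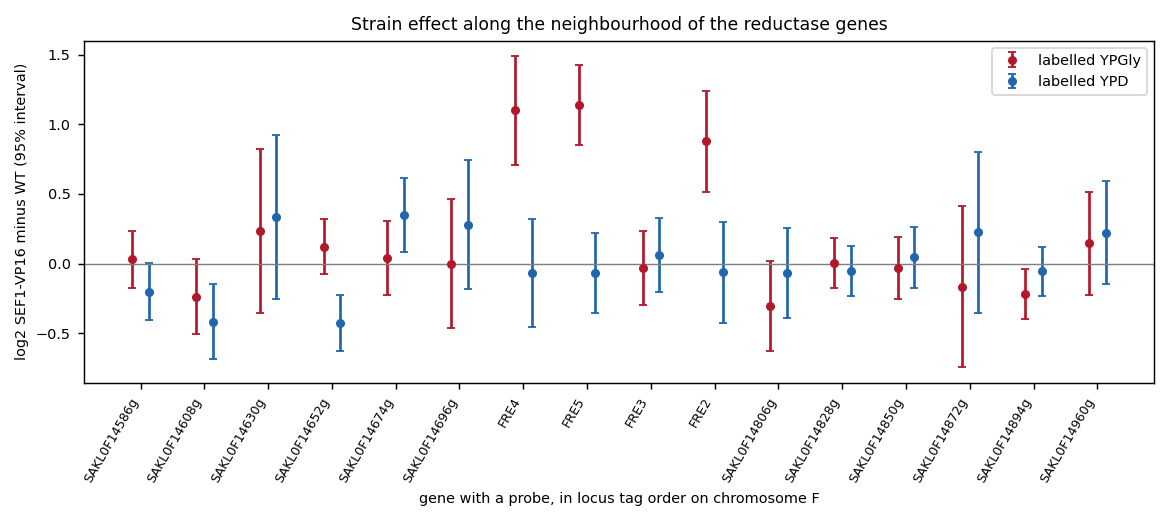
Log2 difference SEF1-VP16 minus WT with its 95% interval for 16 genes in the order of their locus tags on chromosome F, labelled YPGly in red and labelled YPD in blue. FRE4, FRE5 and FRE2 stand at 1.10, 1.14 and 0.88 where labelled YPGly, and FRE3 between FRE5 and FRE2 stands at -0.03.

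Of the 5 other reductase genes on the list (FRE3, FRE6, FRE1, FRE8 and SAKL0C02992g), limma called 0 between the strains in either medium. That count is near the share over all genes, with 1.61% called higher where labelled YPGly and 1.48% where labelled YPD. At an unadjusted p under 0.05 the counts were 2 where labelled YPGly and 1 where labelled YPD, and the methods' t-test called 0 in both. Without the share of all genes at that unadjusted p, the counts of 2 and 1 are not read further. FRE6 (SAKL0F16302g) came nearest, at 0.41 ± 0.11 where labelled YPGly, with an adjusted p of 0.0292 but a change under 1.5-fold. The median log2 difference of the 5 was 0.13 where labelled YPGly and 0.02 where labelled YPD, against 0.01 and 0.02 over all genes. FRE1 (SAKL0F10582g) was the reductase gene with the strongest medium effect outside the members, at 1.85 ± 0.12 in SEF1-VP16 and 1.93 ± 0.12 in WT. FRE3, FRE6 and FRE1 were called higher where labelled YPGly in both strains, as were 26.6% of all genes in SEF1-VP16 and 27.4% in WT.

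Of the other genes of iron and copper handling, 20 of the 21 on the list were tested. Of these, 7 were called higher in SEF1-VP16 where labelled YPGly and 0 lower, where 1.61% of all genes were called higher. The median log2 difference of the 20 was 0.31 and that of all genes 0.01. FET3 (1.34 ± 0.11) and FTR1 (1.04 ± 0.12), the oxidase and permease to which reductases supply ferrous iron, changed by amounts near those of FRE5 and FRE4. So did SIT1 (1.23 ± 0.08), a siderophore transporter in S. cerevisiae. AFT1, the iron regulator of S. cerevisiae, gave 0.86 ± 0.12, CTH1, named for a protein that degrades mRNA when iron is short there, 0.84 ± 0.14, ARN1, a further siderophore transporter, 0.65 ± 0.18, and CCC2, the copper pump, 0.60 ± 0.11. The ARN1 strain effect labelled YPGly lost its call without any 1 of 7 arrays (all 4 of SEF1-VP16 labelled YPGly and WT labelled YPGly replicates 1, 2 and 4), running down to 0.45. The CCC2 strain effect labelled YPGly lost it without SEF1-VP16 replicate 4 or WT replicate 1 or 2, at 0.55 to 0.56.

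Where labelled YPD, 4 of the 20 were called higher and 0 lower, where 1.48% of all genes were called higher and 0.646% lower. The 4 were SIT1 (0.78 ± 0.08), AFT1 (0.70 ± 0.12), FET3 (0.67 ± 0.11) and the copper transporter gene CTR3 (1.5 ± 0.08). The FET3 strain effect labelled YPD lost its call without SEF1-VP16 labelled YPD replicate 4 (0.55), and the AFT1 strain effect labelled YPD without WT labelled YPD replicate 1 (0.58). FTR1 and CTH1 stood at 0.05 ± 0.12 and 0.01 ± 0.14 there, near the members' values. The strain effect was larger where labelled YPGly for FTR1, by 0.99 ± 0.17 (limma adjusted p = 0.0102), for CCC2, by 0.92 ± 0.16 (adjusted p = 0.0102), and for CTH1, by 0.83 ± 0.20 (adjusted p = 0.0481). That of CTH1 was called in only 3 of the 16 fits that leave out 1 array, with adjusted p values up to 0.109 in the others. The strain effect was smaller there for CTR3, by 1.73 ± 0.12 (a log2 difference of -1.73, adjusted p = 6.04e-07). FET3, at 0.67 ± 0.16, was not called (adjusted p = 0.0522). AFT1, at 0.15 ± 0.17, was not called either (adjusted p = 0.744).

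**Figure D5:**
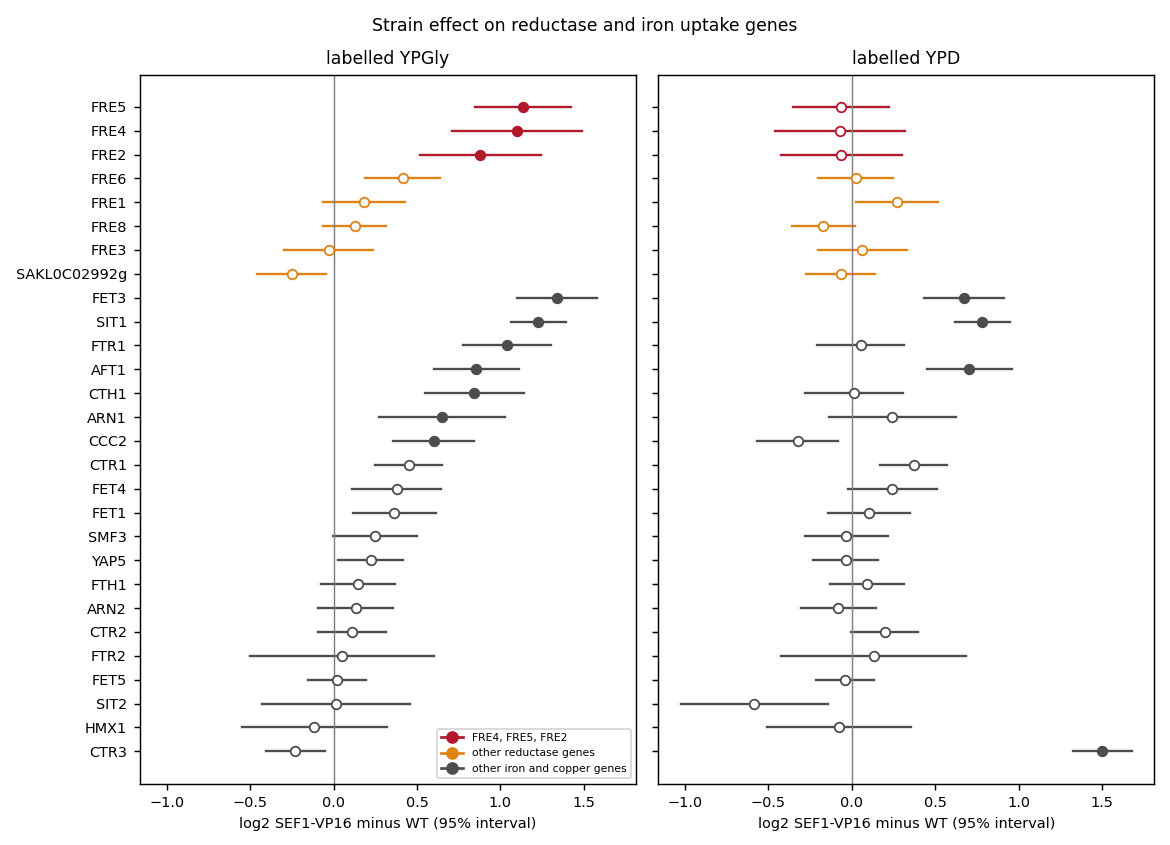
Log2 difference SEF1-VP16 minus WT with its 95% interval for the 3 members (red), the 5 other reductase genes (orange) and 20 other genes of iron and copper handling (grey), labelled YPGly on the left and labelled YPD on the right. Filled points were called. FRE5, FRE4 and FRE2 are filled on the left and lie near 0 on the right, while FET3, SIT1 and AFT1 are filled in both panels.

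The level of each member over the 16 arrays was set against that of the 5266 other genes tested. These arrays fall into 4 groups on 2 slides, so the correlations are descriptions. FRE4 and FRE2 had a Pearson's r of 0.70 with each other, and FRE2 ranked 33rd among the genes most like FRE4. FRE4 and FRE5 had 0.56, and FRE5 and FRE2 had 0.07. Once group means were taken away the 3 pairs had 0.44, 0.33 and 0.33.

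The genes most like FRE5 were led by SAKL0F14498g (r = 0.97), annotated as similar to the CTP synthase gene URA7, and the other 4 (SAKL0G02816g, SAKL0A02156g, SAKL0G06270g and SAKL0F07128g) also had 0.97. All 5 were called higher where labelled YPGly in SEF1-VP16 (26.6% of all genes) and 2 of 5 in WT (27.4%). They were picked for likeness to FRE5 over these same arrays, so their direction follows from the choice and is no separate result. Those most like FRE4 were SAKL0E08448g (r = 0.84), similar to the mitochondrial porin gene POR2, SAKL0F09570g (0.84), SAKL0G00946g (0.81), named RPL3 for a ribosomal protein, SAKL0C03454g (0.80) and SAKL0H04884g (0.80), named RDL2. Of these, SAKL0H04884g alone was called between the strains, at 0.83 ± 0.12 where labelled YPGly, where 1.61% of all genes were called higher. The genes most like FRE4 were picked over these same arrays too, so this call is no separate result. Those most like FRE2 were SAKL0C09328g (r = 0.91), similar to PUF6, SAKL0B03146g (0.87), SAKL0A06556g (0.87), annotated as an omega-3 fatty acid desaturase, SAKL0G02970g (0.87) and SAKL0H02134g (0.85). By Spearman's rank correlation 2 of the 5 genes stayed among the 5 most like FRE4, and likewise 2 for FRE5 and 4 for FRE2.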

How the data were processed

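RNA of 16 cultures was labelled with a fluorescent dye and hybridised to custom Agilent arrays. The authors extracted spots with Agilent Feature Extraction 10.5.1.1, per the labels' processing notes, and the deposited scanner files hold an intensity per spot (background-subtracted processed signal). They also deposited log2 values scaled to each array's 75th percentile, which differed from the log2 processed signal by 1 constant per array and were used as an alternative.

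Here the log2 processed signal minus the 75th percentile over gene probes was used. Control spots were left out and 332 non-uniform outlier spots treated as missing. The brighter of a gene's probes was used, and genes entered the tests if some group had that probe well above background on its 4 arrays. The study took probes from its own list, which holds the same probes for the 3 genes. R 4.3.3 and limma 3.58.1 fitted the 4 group means together. The p-values were adjusted by the Benjamini-Hochberg method across every gene tested (5267 for the brighter probes, 5242 for the dimmer). The rule for named genes was the members, the other reductase genes, the 6 genes on each side, called members of the iron list, the 5 genes most like each member, SEF1 and AFT1. Members and lists were chosen with earlier results of these data known. The normexp alternative (offset 50) used median in place of mean spot signals. Scripts were tested on simulated data. Alternatives were the deposited values, quantile, median and normexp scaling, the other probe or the mean of both, array weights, a replicate block, the methods' t-test and leaving out each array.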

Additional observations from a re-analysis of the deposited data

Results flagged for a closer look

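On the brighter FRE5 probe, replicate 4 of SEF1-VP16 labelled YPGly stood at -0.41, above the other 3 cultures at -0.81 to -0.77, which was further than Dixon's limit for 4 samples. On the dimmer FRE5 probe, replicate 1 of SEF1-VP16 labelled YPD stood at -8.24, below the other 3 at -6.73 to -6.44, and the probe was not well above background there. These were 2 of 24 groups of 4 arrays looked at, and chance alone gives about 5% of groups. The strain effect differed between the labelled media by the test of that difference for FRE5 (1.20), FRE4 (1.17), FTR1 (0.99), CCC2 (0.92) and CTH1 (0.83, lost without any 1 of 13 arrays), each larger where labelled YPGly, and for CTR3 (-1.73), larger where labelled YPD.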

How the results depend on the processing

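The strain effects labelled YPGly of FRE4 and FRE5 and the medium effects of FRE5 kept their direction and call under every alternative run. With the dimmer probe the strain effect labelled YPD was 1.00 for FRE4 and 0.17 for FRE5, and with the mean of both probes 0.47 and 0.053. The medium effect of FRE4 in WT was 1.55 with the dimmer probe and 0.60 with the mean of both. The difference between the strain effects of FRE4 (1.10) and FRE5 (1.24) was not called with the dimmer probe. That of FRE2 was called with normexp (1.16), the mean of both probes (0.89) and array weights (1.01). The FRE2 strain effect labelled YPGly was not called with quantile normalisation (0.79). SEF1 counted as called on the adjusted p alone (-0.36 and -0.39).

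With the dimmer probes the unequal changes between strains were -0.69, 1.45 and 0.75 where labelled YPGly and -0.83, 1.19 and 0.36 where labelled YPD, for FRE5 minus FRE4, FRE4 minus FRE2 and FRE5 minus FRE2. Between media they were 2.51, 2.40 and 4.91 in SEF1-VP16 and 2.37, 2.14 and 4.51 in WT, and those with FRE5 rest on signals near background where labelled YPD. With quantile normalisation the first 2 pairs labelled YPD were -0.077 and 0.069. By Spearman's correlation 2 of 5 genes stayed for FRE4 and 2 for FRE5. The cause of these changes was not tested.

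With each array left out in turn, the strain effect labelled YPD ran from -0.25 to 0.11 for FRE4, -0.20 to 0.060 for FRE5 and -0.23 to 0.10 for FRE2. The difference between strain effects ran from 0.99 to 1.35 for FRE4 and 0.78 to 1.10 for FRE2, and the FRE2 medium effect in WT from -0.79 to -0.53. The unequal changes, left out in this way after seeing the data, ran from -0.089 to 0.13 for FRE5 minus FRE4 labelled YPGly and, labelled YPD, from -0.12 to 0.17 for FRE5 minus FRE4, -0.11 to 0.20 for FRE4 minus FRE2 and -0.11 to 0.18 for FRE5 minus FRE2. None of the 12 passed the adjusted threshold, as with all arrays. Here too not enough tests reached the smallest p for those to pass, so this does not show how steady the changes were. The difference between strain effects has no value from the t-test or from only the arrays compared.

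Replicate numbers gave no steady pairing of the cultures, since correlations between same-numbered cultures ran from -0.55 to 0.41 over the pairs of groups compared. Outside those pairs, replicate 3 reached 0.77 between WT labelled YPD and SEF1-VP16 labelled YPGly. Replicate number was also the array column on each slide, so replicate and column cannot be told apart. With the replicate number as a block the members' calls did not change, while the ARN1 strain effect labelled YPGly (0.65) was no longer called (adjusted p = 0.0525). Precision is limited by 4 arrays per group and, for the dimmer FRE5 and FRE2 probes where labelled YPD, by signals near background.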
